A study of Homo sapiens with 61 samples.

Results

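Microtubules are built from dimers of alpha and beta tubulin, and human cells carry several beta tubulin genes whose products are called isotypes. The genes described here are 7 of these isotypes (TUBB, TUBB2A, TUBB2B, TUBB3, TUBB4A, TUBB4B and TUBB6) and AL662797.1, a transcript annotated antisense to TUBB. They are 8 of the 58440 genes in each count table and were picked by symbol, matched to the gene identifiers through GENCODE 29. Earlier results of these data on vincristine were known when they were picked, so their responses to the drug, and how these differ between lines, are given below as a description. No p-value is given for them, and counts of genes past a threshold support nothing.

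The RNA came from cortical neurons. They were derived from the established human line WTC11, whose cells are induced pluripotent stem cells, by switching on NGN2, a transcription factor that drives neuronal fate. Experiment 1 used 4 lines with a doxycycline-controlled NGN2 cassette, which were wild type (WT), DLK KO, LZK KO and the DLK LZK double KO (double KO below). DLK (gene MAP3K12) and LZK (gene MAP3K13) are related stress kinases of injured axons that act through JNK on transcription factors such as JUN. Experiment 2 used WTC11 i3Neurons that held the machinery of CRISPR interference, which represses a gene without cutting it, and a lentiviral guide RNA against ATF2 (ATF2 gRNA) or JUN (JUN gRNA), or with a scrambled sequence (Control gRNA). On day 14 each line received 5 nM vincristine or the vehicle DMSO for 16 hours, and the vehicle cultures are called untreated, as in the labels (the extraction notes give a range of days that ends at day 14). The 14 groups held 4 libraries each in experiment 1 and 5 each in experiment 2, except ATF2 gRNA with vincristine, which held 4. Whether a knockout line is a single clone, and whether replicates are separate differentiations, is not given in the sources used here, so p-values measure only the spread between these cultures.

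Total counts per library ran from 8410729 to 14647819 in experiment 1 and from 38925807 to 88392414 in experiment 2. All 8 genes passed the filter on low counts in both experiments, among 18235 and 20759 genes tested. Levels are given as CPM, the counts of a gene scaled to the library total with TMM factors, and are compared within an experiment only. As a check of the labels, the untreated log2 fold change against the control line was -1.79 for MAP3K12 in DLK KO, -1.63 for MAP3K13 in LZK KO, -2.21 and -1.74 for these 2 genes in double KO, -7.88 for ATF2 in ATF2 gRNA and -4.96 for JUN in JUN gRNA. The summed level of 10 neuron markers was 11370 to 19550 CPM over the 61 libraries, against 1.65 to 62.2 CPM for 5 pluripotency markers. The neuron sum was lower with vincristine, without overlap, in WT (14950 to 15850, then 12810 to 14290 CPM), Control gRNA (15370 to 15810, then 11370 to 11960 CPM), ATF2 gRNA (13700 to 13870, then 12690 to 13270 CPM) and JUN gRNA (14830 to 15510, then 12460 to 12690 CPM). It was higher in LZK KO (15510 to 16840, then 17730 to 18190 CPM). Of its 10 genes, 2 were called lower and 3 higher in WT (14.5% and 15.7% of all genes tested). In Control gRNA 6 were called lower and 2 higher (18.1% and 17.1%), and in JUN gRNA 5 and 2 (8.31% and 7.58%). In ATF2 gRNA 2 were called lower (4.22%), and in LZK KO 1 was called higher (2.27%). The part of these markers in the results below was not tested. The library WT vincristine replicate 4 stood apart from the other WT vincristine libraries (mean chi-square per gene 33.3 to 49.1 with each of them, where the median over pairs of replicates of experiment 1 was 5.01), so the log2 changes that use it are also given without it.

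Vincristine binds tubulin and takes microtubules apart, which raises the pool of free dimers. Cells are known to answer a rise in free tubulin by degrading tubulin messenger RNA while it is being translated, a process called autoregulation. The adaptor TTC5 recognises the first residues of a new alpha or beta tubulin as they leave the ribosome, and recruits SCAPER and the CCR4-NOT deadenylase. The stretch of coding sequence that gives those residues is therefore shown for each isotype, as the first 30 coding bases from the GENCODE 29 transcripts (GRCh38), with the first 4 codons in capitals.
TUBB: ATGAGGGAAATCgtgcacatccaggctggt
TUBB4B: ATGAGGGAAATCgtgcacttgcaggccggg
TUBB3: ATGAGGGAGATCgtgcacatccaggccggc
TUBB6: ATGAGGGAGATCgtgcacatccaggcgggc
TUBB4A: ATGCGGGAGATCgtgcacctgcaggccggc
TUBB2A: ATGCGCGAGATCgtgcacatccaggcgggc
TUBB2B: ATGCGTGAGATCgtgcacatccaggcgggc
The 4 codons were spelled in 5 ways, and all 7 isotypes encode the same residues there. TUBB6 shares its spelling with TUBB3, and TUBB with TUBB4B.

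The isotypes differ most at the end of the coding sequence, which encodes the acidic tail that motors and modifying enzymes read. The last 60 coding bases of 4 isotypes are shown because they bear on how reads can be told apart.
TUBB: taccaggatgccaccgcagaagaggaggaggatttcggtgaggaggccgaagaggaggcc
TUBB2A: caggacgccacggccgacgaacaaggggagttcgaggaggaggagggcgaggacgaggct
TUBB2B: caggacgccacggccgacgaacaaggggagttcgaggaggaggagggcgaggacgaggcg
TUBB6: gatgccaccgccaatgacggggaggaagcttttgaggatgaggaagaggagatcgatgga
Over these bases TUBB2A and TUBB2B were 98.3% identical, TUBB and TUBB2A 66.7%, and TUBB and TUBB6 59.4%. Over the whole coding sequence, identity among the 21 pairs of isotypes ran from 81.0% (TUBB with TUBB6) to 98.2% (TUBB2A with TUBB2B).

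On GRCh38, TUBB lies on chromosome 6 from 30720201 to 30725426 on the plus strand, and TUBB2A (3153669 to 3157526) and its close copy TUBB2B (3224261 to 3231730) lie side by side on the minus strand of the same chromosome. TUBB3 lies on chromosome 16 (89921392 to 89938761, plus), TUBB4A on chromosome 19 (6494319 to 6502848, minus), TUBB4B on chromosome 9 (137241213 to 137243707, plus) and TUBB6 on chromosome 18 (12307669 to 12344320, plus). AL662797.1 lies inside TUBB on the other strand (chromosome 6, 30723105 to 30723877), and 538 of its 773 bases (69.6%) overlap TUBB exons. How reads that fit several genes were counted, and whether strand was used, is not given in the sources used here. Of the stretches of 100 bases (a read length) in the main transcript, 56.4% in TUBB2A and 46.2% in TUBB2B also occur in a transcript of another gene, mostly of each other, so the split between these genes is uncertain. For TUBB3 that share was 89.0%, all of it with AC092143.1, a readthrough gene that joins TUBB3 to its neighbour and had a median of 0 counts per library. The level of TUBB3, a standard marker of neurons, may therefore be undercounted, and its rank among the isotypes is not a measure of its abundance. TUBB4A and TUBB6 had no such stretch, and TUBB (5.10%) and TUBB4B (2.86%) few. Of the 4117 exon bases of TUBB6, however, 837 (20.3%) overlap AFG3L2 on the opposite strand, a gene with a median of 1041.5 counts per library in experiment 1 and 5378 in experiment 2, and its part in the low TUBB6 counts was not tested.

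Vincristine was followed by lower transcript levels of the same 6 isotypes in every line, and TUBB6 departed from them. In WT, TUBB, the broadly expressed isotype with the highest level here, stood at 1351, 1374, 1471 and 1267 CPM in untreated libraries and at 418, 440, 417 and 548 CPM with vincristine. Its groups did not overlap, and the log2 fold change was -1.58 ± 0.08 (SE), or -1.69 without WT vincristine replicate 4. In Control gRNA it stood at 2769, 2922, 2805, 2833 and 2896 CPM untreated and at 860, 883, 873, 858 and 843 CPM with vincristine (log2 fold change -1.72 ± 0.04). The treated mean was 33.4% of the untreated one in WT and 30.3% in Control gRNA, and again no treated library reached the untreated range. In bulk RNA, fewer cells that hold a transcript and less of it per cell cannot be told apart.

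TUBB2B, abundant in young neurons, was at 707, 715, 731 and 659 CPM in untreated WT and at 373, 343, 330 and 304 CPM with vincristine (-1.06 ± 0.06, and -1.01 without WT vincristine replicate 4). TUBB2A, its near copy, was at 347, 352, 360 and 333 CPM untreated and at 129, 134, 118 and 111 CPM with vincristine (-1.50 ± 0.07, and -1.45 without that library). Both pairs of groups were apart, and the log2 change of TUBB2A was the more negative one in WT, DLK KO, LZK KO, Control gRNA and JUN gRNA, while in ATF2 gRNA it was -1.56 against -1.71 for TUBB2B. In double KO the pair stood level, at -1.46 and -1.45.

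TUBB4A, known from neurons and from the glia that make myelin, was at 160, 176, 177 and 180 CPM in untreated WT and at 48.6, 56.5, 55.7 and 37.1 CPM with vincristine (-1.81 ± 0.09, and -1.69 without WT vincristine replicate 4). TUBB4B, a widely expressed isotype that also builds cilia, was at 121, 123, 128 and 117 CPM untreated and at 33.1, 39.4, 28.3 and 33.8 CPM with vincristine (-1.86 ± 0.08, the same value without that library). These were the most negative isotype changes in WT. TUBB had the most negative one in ATF2 gRNA (-2.05 ± 0.05), DLK KO (-1.73), JUN gRNA (-1.68) and LZK KO (-1.19, with TUBB4A at -1.18). TUBB4A had it in Control gRNA (-1.75) and double KO (-1.65). TUBB3 was at 35.7, 38.5, 39.1 and 34.2 CPM untreated and at 22.8, 20.1, 19.8 and 16.1 CPM with vincristine (-0.90 ± 0.10, and -0.82 without WT vincristine replicate 4). Of the 6 isotypes with lower levels, TUBB3 had the change nearest to 0 in every line, from -1.10 ± 0.10 in double KO to -0.60 ± 0.13 in ATF2 gRNA. In LZK KO, however, TUBB3 and TUBB2B stood level, at -0.77 and -0.78.

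Across the 7 lines, the vincristine libraries of TUBB, TUBB2A, TUBB2B, TUBB3, TUBB4A and TUBB4B all lay below the untreated libraries of the same line. The share of all genes tested whose groups lay apart, here and in the comparisons below, was not counted. The 7 isotypes had a median log2 change of -1.50 (WT), -1.36 (DLK KO), -1.08 (LZK KO), -1.46 (double KO), -1.44 (Control gRNA), -1.56 (ATF2 gRNA) and -1.31 (JUN gRNA), while the median over all genes tested lay between -0.02 and 0.03. A gene is called when edgeR's quasi-likelihood test gives it an adjusted p under 0.05 (Benjamini-Hochberg, across every gene tested). By that rule 8 of the 8 genes were called in WT (30.2% of all genes tested were). DLK KO had 7 (6.53%), as did LZK KO (3.88%) and double KO (0.0658%). Control gRNA had 7 (35.3%), while ATF2 gRNA (6.1%) and JUN gRNA (15.9%) had 6 each. Nothing is read from these counts, since the genes were picked with these effects known. In double KO the 12 genes called in all therefore included 7 of the 8, the exception being TUBB6.

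**Figure D1:**
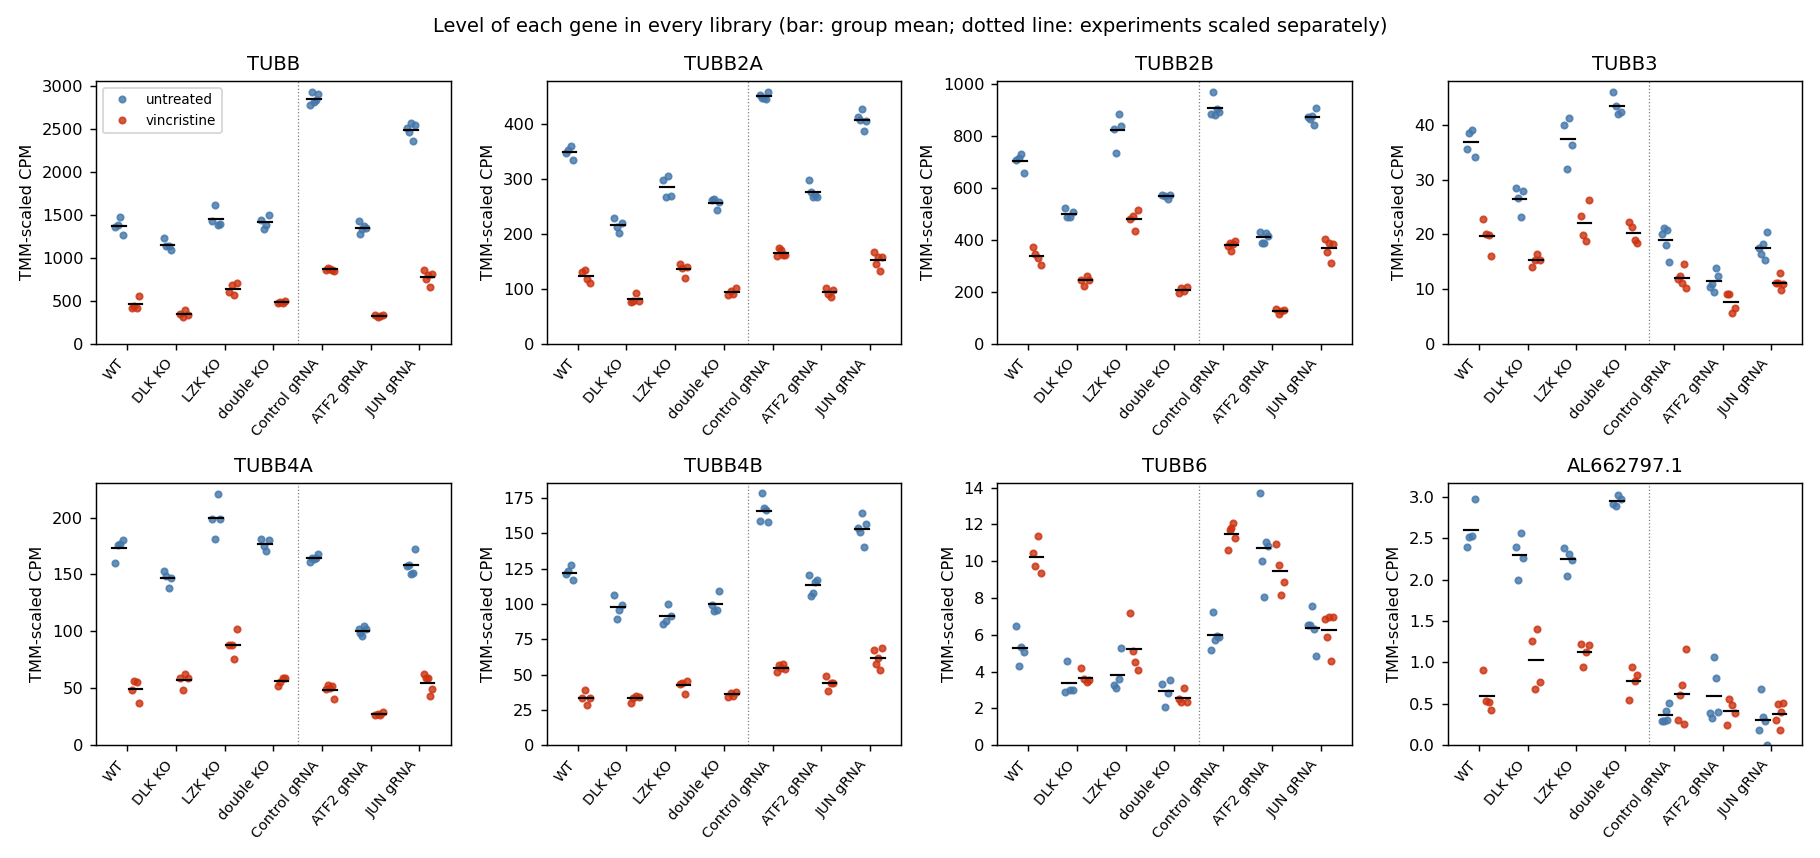
TMM-scaled CPM of each of the 8 genes (vertical axes, from 0) in every library of the 7 lines, untreated in blue and vincristine in red, with a bar at each group mean and a dotted line between the separately scaled experiments. In the panels of TUBB, TUBB2A, TUBB2B, TUBB3, TUBB4A and TUBB4B the red points lie below the blue ones of the same line, whereas TUBB6 is higher with vincristine in WT (mean 10.2 against 5.30 CPM) and Control gRNA (11.5 against 5.98 CPM).

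TUBB6, an isotype known from muscle and other tissues and scarce in brain, moved the other way in the control lines. Its CPM in WT was 6.50, 4.29, 5.34 and 5.07 untreated and 10.4, 9.71, 11.4 and 9.38 with vincristine, from 46 to 131 counts per library. All vincristine libraries lay above all untreated ones, and the log2 fold change was 0.95 ± 0.16 (0.99 without WT vincristine replicate 4). In Control gRNA the values were 5.19, 7.22, 5.71, 5.91 and 5.87 untreated and 10.6, 11.7, 11.8, 12.1 and 11.3 with vincristine, again apart, with a log2 fold change of 0.94 ± 0.13.

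In the other 5 lines the treated and untreated libraries of TUBB6 overlapped. DLK KO had 2.87, 4.59, 3.01 and 3.01 CPM untreated and 4.17, 3.58, 3.41 and 3.53 CPM with vincristine (log2 fold change 0.12 ± 0.20), and LZK KO had 3.30, 3.13, 3.61 and 5.30 CPM untreated and 7.20, 5.11, 4.50 and 4.11 CPM with vincristine (0.45 ± 0.19). Double KO had 3.33, 2.09, 2.85 and 3.54 CPM untreated and 2.54, 2.33, 3.12 and 2.35 CPM with vincristine (-0.18 ± 0.21). These are low levels, with 23 to 65 counts per library in the 3 knockout lines. JUN gRNA had 6.54, 6.53, 7.56, 6.29 and 4.83 CPM untreated and 6.84, 5.88, 6.97, 4.58 and 6.98 CPM with vincristine (-0.03 ± 0.13). ATF2 gRNA had 13.7, 10.0, 8.05, 11.0 and 10.8 CPM untreated and 11.0, 9.80, 8.14 and 8.86 CPM with vincristine (-0.18 ± 0.13), so it was already high without the drug.

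By group mean in experiment 1, TUBB6 ran from 10.2 ± 0.89 CPM (SD) in WT with vincristine through untreated WT (5.30 ± 0.92), LZK KO with vincristine (5.23 ± 1.38), untreated LZK KO (3.83 ± 1.00), DLK KO with vincristine (3.67 ± 0.34), untreated DLK KO (3.37 ± 0.82) and untreated double KO (2.95 ± 0.64) to double KO with vincristine (2.58 ± 0.37). Of these neighbours, the first pair alone did not overlap. In experiment 2 the order was Control gRNA with vincristine (11.5 ± 0.58), untreated ATF2 gRNA (10.7 ± 2.03), ATF2 gRNA with vincristine (9.44 ± 1.21), untreated JUN gRNA (6.35 ± 0.98), JUN gRNA with vincristine (6.25 ± 1.04) and untreated Control gRNA (5.98 ± 0.75). There the gap between ATF2 gRNA with vincristine and untreated JUN gRNA was the only pair of neighbours that did not overlap. Of 5 neural progenitor markers (SOX2, PAX6, NES, VIM and HES5), some were also called higher with vincristine: NES and VIM in WT, DLK KO, LZK KO and JUN gRNA, these and SOX2 in Control gRNA, SOX2 and VIM in ATF2 gRNA, and 0 in double KO. The median log2 change of the list was 0.05 in WT, 0.62 in Control gRNA and -0.02 in LZK KO. Its summed level went from 779 to 824 CPM untreated to 1055 to 2094 CPM with vincristine in WT, and from 1326 to 1418 to 2559 to 2655 CPM in Control gRNA. It was also higher without overlap in DLK KO (226 to 295, then 521 to 635 CPM), LZK KO (549 to 703, then 1053 to 1253 CPM) and JUN gRNA (965 to 1088, then 1669 to 1775 CPM), where TUBB6 overlapped. It overlapped in double KO (290 to 303, then 288 to 305 CPM) and ATF2 gRNA (763 to 839, then 729 to 838 CPM). No marker of that list was at 0 throughout a group, and its part in the TUBB6 values was not tested.

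**Figure D2:**
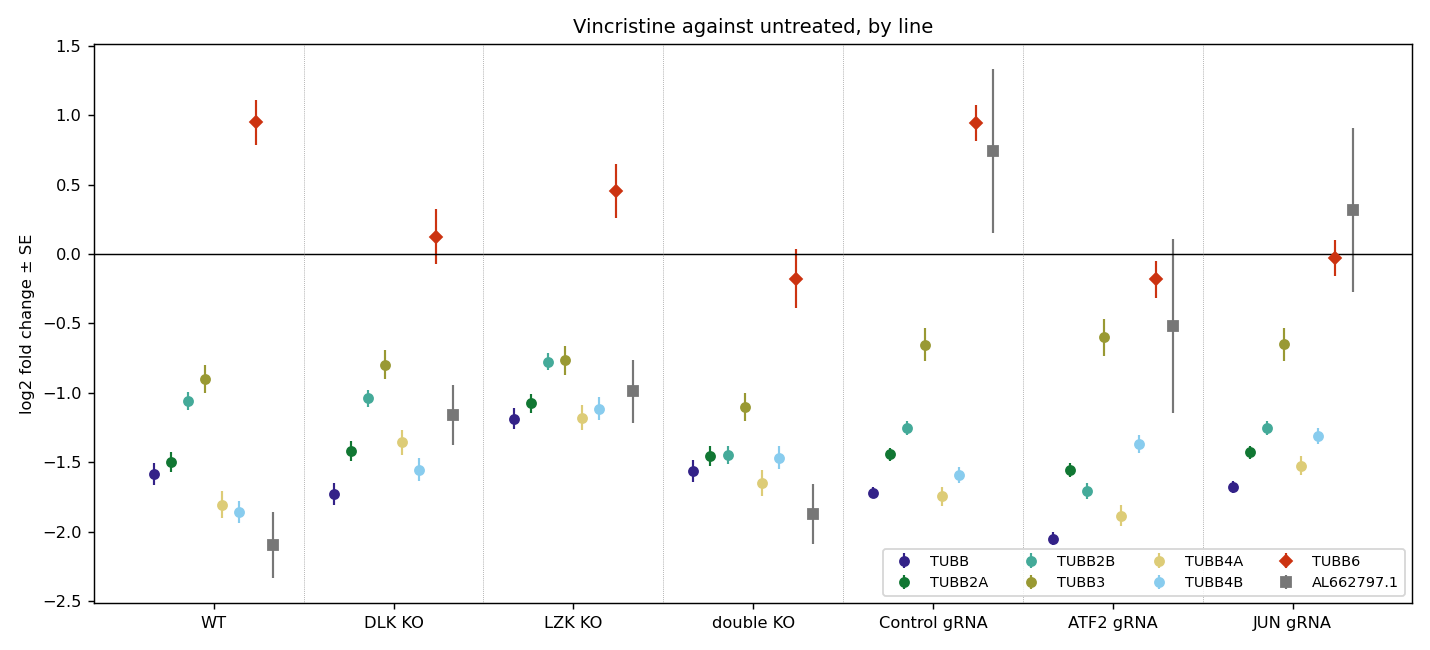
Log2 fold change of vincristine against untreated (vertical axis) with its SE for each of the 8 genes, by line. The circles of 6 isotypes lie between -2.05 and -0.60 in all 7 lines, and TUBB6 (diamonds) lies at 0.95 in WT and 0.94 in Control gRNA and between -0.18 and 0.45 elsewhere.

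To compare isotypes with each other, levels were divided by exon length (RPKM, CPM per kilobase). That length joins all annotated exons of a gene and exceeds that of the main transcript. It was 3359 against 2670 bases for TUBB, 2194 against 2020 for TUBB2B, 4430 against 1769 for TUBB3 and 4117 against 2064 for TUBB6. The order of the isotypes and their shares, here and below, depend on this choice, and main transcript lengths were not tried. In untreated WT the order was TUBB (407 RPKM), TUBB2B (320), TUBB2A (201), TUBB4B (57.9), TUBB4A (50.0), TUBB3 (8.32) and TUBB6 (1.29), and the libraries of each neighbouring pair were apart. TUBB led in all 7 untreated groups, while TUBB2B had the higher mean with vincristine in WT (154 against 136 RPKM), DLK KO (111 against 103) and LZK KO (219 against 190), each time with overlapping libraries. This switch rests on the lengths used. Before division by length, TUBB had the higher mean there (456 against 338 CPM in WT, 345 against 243 in DLK KO and 638 against 480 in LZK KO). As a share of the summed isotype RPKM, TUBB went from 38.9% ± 0.66 (SD) to 34.1% ± 4.65 in WT, and TUBB2B from 30.6% ± 0.36 to 38.7% ± 2.95. These WT values rest in part on WT vincristine replicate 4, where TUBB took 41.0% and TUBB2B 34.8%, while in the other WT vincristine libraries TUBB took 30.6%, 32.2% and 32.7% and TUBB2B 41.8%, 38.5% and 39.7%. In Control gRNA these shares went from 51.3% ± 0.38 to 45.0% ± 0.63 for TUBB and from 25.0% ± 0.52 to 30.3% ± 1.09 for TUBB2B. Double KO kept nearly the same make-up, with TUBB at 44.9% ± 1.04 and then 43.2% ± 0.62, and TUBB2B at 27.6% ± 0.59 and then 28.7% ± 0.45.

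The TUBB6 share stayed small in every group. It was 0.123% ± 0.022 in untreated WT and 0.626% ± 0.072 with vincristine, and 0.0878% ± 0.0090 and 0.488% ± 0.022 in Control gRNA. It was highest in ATF2 gRNA, at 0.311% ± 0.048 untreated and 0.953% ± 0.113 with vincristine, where its mean RPKM (2.60 and 2.29) was above that of TUBB3 (2.58 and 1.70) with overlapping libraries. Before division by length, TUBB6 was below TUBB3 untreated (10.7 against 11.4 CPM) and above it with vincristine (9.44 against 7.54 CPM). TUBB3 may also be undercounted, so their order is uncertain. The log2 ratio of TUBB6 to the sum of the other 6 isotypes was higher with vincristine in all 7 lines, going from -9.68 ± 0.26 to -7.32 ± 0.16 in WT and from -10.4 ± 0.31 to -9.04 ± 0.24 in double KO. The other 6 fell in every line, so the ratio and the share can rise without a rise in TUBB6. The log2 change of TUBB6 itself was -0.18 in double KO and ATF2 gRNA and -0.03 in JUN gRNA, with overlapping libraries. The 7 isotypes together took 0.275% ± 0.013 of TMM-scaled counts in untreated WT and 0.103% ± 0.003 with vincristine, and 0.456% ± 0.010 and 0.154% ± 0.003 in Control gRNA.

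**Figure D3:**
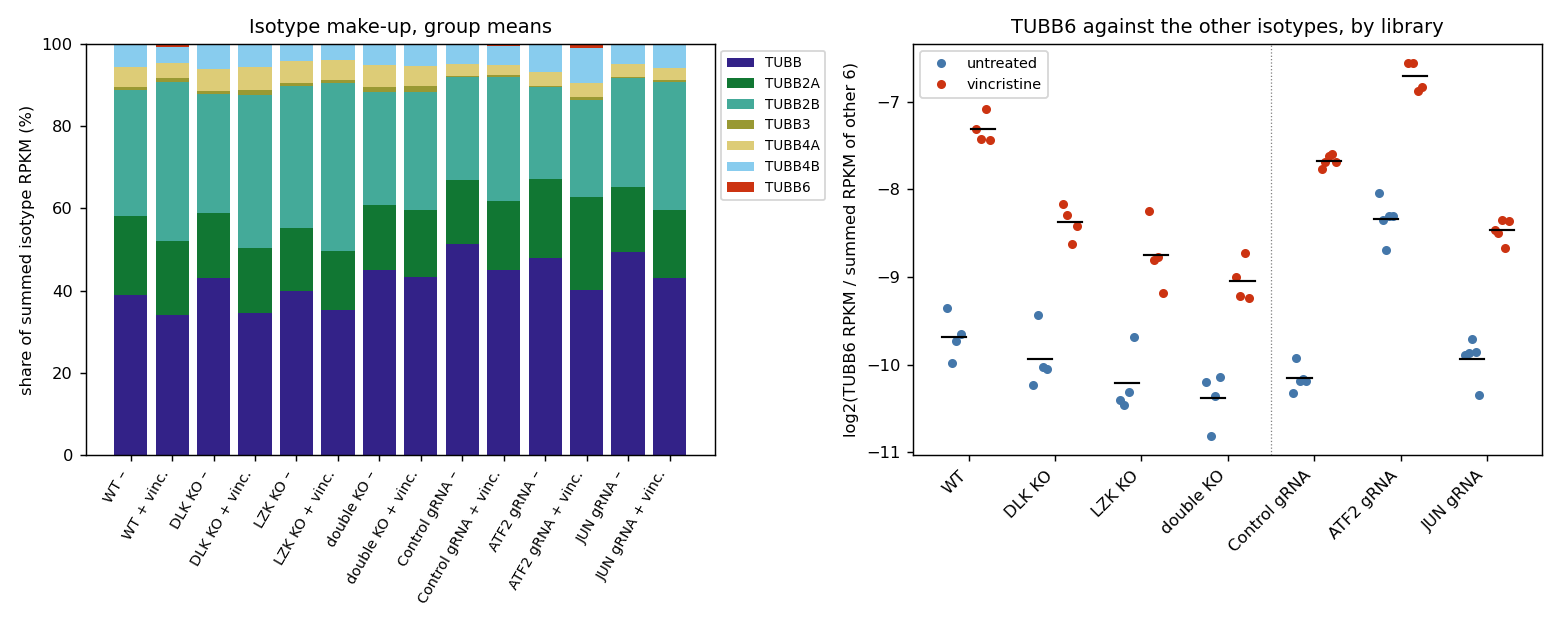
Left, mean share of each isotype in the summed RPKM of the 7 isotypes (vertical axis, percent) for the 14 groups, with untreated marked by a minus sign. Right, log2 of TUBB6 RPKM over the summed RPKM of the other 6 for every library, with a bar at each group mean, where untreated ATF2 gRNA (mean -8.34) lies above untreated Control gRNA (-10.2).

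That ratio was tested between untreated lines and their control by exact permutation, 2-sided, with p adjusted over the 5 comparisons. In ATF2 gRNA it was higher by 1.82 on the log2 scale, above Control gRNA in 5 of 5 libraries (p = 0.00794, the smallest this design allows, adjusted p = 0.0397, exact permutation test). Double KO had a difference from WT of -0.70 with all libraries below, and the exact permutation p was 0.0286, the smallest possible with 4 against 4, with an adjusted p of 0.0714. LZK KO (difference -0.53, adjusted p = 0.143), DLK KO (-0.26, adjusted p = 0.257) and JUN gRNA (0.22, adjusted p = 0.149) overlapped their controls and did not pass the exact permutation test. TUBB6 was set apart from the other isotypes with the vincristine effects known, and those effects use the same untreated control libraries. These p-values, and those of the untreated comparisons below, are therefore not independent of how the genes were chosen.

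Without vincristine, the levels of several isotypes already differed between lines. In ATF2 gRNA 6 isotypes fell and TUBB6 rose, so 7 of 8 genes were called where 39.9% of all genes tested were (20.2% lower and 19.7% higher). TUBB stood at 1420, 1277, 1328, 1366 and 1339 CPM against 2769 to 2922 CPM in Control gRNA, with a log2 fold change of -1.08 ± 0.04 (edgeR, adjusted p = 1.652e-23). TUBB2B, with 388 to 429 CPM against 882 to 969 CPM, changed by -1.15 ± 0.05 (adjusted p = 8.364e-21). In each of the 6 isotypes that fell, all libraries of ATF2 gRNA lay below all of Control gRNA. The other falls were -0.71 ± 0.05 for TUBB2A, -0.73 ± 0.12 for TUBB3, -0.71 ± 0.07 for TUBB4A and -0.55 ± 0.06 for TUBB4B. TUBB6 rose by 0.84 ± 0.13 (adjusted p = 4.231e-07) with all libraries above, so untreated ATF2 gRNA held TUBB6 near the level that Control gRNA reached with vincristine. Markers of other cell types differed in the same comparison without overlap. Untreated ATF2 gRNA against untreated Control gRNA had summed levels of 33.8 to 40.2 against 9.58 to 13.5 CPM for the 5 pluripotency markers (NANOG and TDGF1 at 0 in ATF2 gRNA, TDGF1 at 0 in Control gRNA), 5.17 to 6.63 against 1.23 to 1.89 CPM for 4 astrocyte markers (GFAP at 0 in Control gRNA), 763 to 839 against 1326 to 1418 CPM for the progenitor markers and 13700 to 13870 against 15370 to 15810 CPM for the neuron markers. By gene, 3 of the 5 progenitor markers were called higher and 1 lower (median log2 change 0.53). Of the 10 neuron markers, 4 were called higher and 4 lower (median -0.06). Only 2 of the 4 astrocyte markers passed the filter, and 1 was called higher. Of the 5 pluripotency markers 3 passed, and 2 were called higher. The part of all these markers in the result was not tested. In JUN gRNA fewer genes were called, with TUBB (-0.20 ± 0.04, adjusted p = 0.0006786) and TUBB2A (-0.14 ± 0.05, adjusted p = 0.02935) lower, 2 of 8 against 11.2% of all genes. The TUBB2A call was lost without any one of 6 libraries (Control gRNA untreated replicates 1, 2 and 5 and JUN gRNA untreated replicates 2, 4 and 5), with adjusted p up to 0.1036.

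Among the knockouts, DLK KO had 7 of 8 genes lower than WT, where 34.5% of all genes tested were called and 17.9% were called lower. TUBB2A stood at 228, 212, 201 and 219 CPM against 333 to 360 CPM in WT (-0.69 ± 0.07, edgeR, adjusted p = 1.895e-10), and TUBB2B at 522, 487, 487 and 505 CPM against 659 to 731 CPM (-0.49 ± 0.06, adjusted p = 5.404e-08). These groups were apart, as were those of TUBB (-0.26 ± 0.08), TUBB3 (-0.48 ± 0.10), TUBB4A (-0.24 ± 0.09) and TUBB4B (-0.32 ± 0.08). TUBB6 was lower as well (-0.65 ± 0.19, adjusted p = 0.006086), with 1 of the DLK KO libraries, replicate 2, inside the WT range. The TUBB4A call was lost without any one of 6 libraries, WT untreated replicates 2, 3 and 4 and DLK KO untreated replicates 2, 3 and 4 (adjusted p up to 0.1149), and the TUBB call without WT untreated replicate 3 (adjusted p = 0.05955).

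LZK KO had 3 of 8 genes called, near the share of all genes tested (33.9%), so nothing is read from that count. TUBB2A (-0.29 ± 0.07) and TUBB4B (-0.42 ± 0.08) were lower and TUBB2B was higher (0.22 ± 0.06), each with libraries apart from WT. The TUBB2B call was lost without LZK KO untreated replicate 3 (adjusted p = 0.06961). TUBB6 in LZK KO, at -0.47 ± 0.19, did not pass (adjusted p = 0.05153), and passed without WT untreated replicate 2 (adjusted p = 0.02196) or LZK KO untreated replicate 4 (0.01015). With all libraries it passed in edgeR with RLE factors (adjusted p = 0.04526) or a mean of at least 1 CPM (0.04727), and in DESeq2 (0.04787). Double KO had 5 of 8 called (45.7% of all genes): TUBB2A (-0.44 ± 0.07), TUBB2B (-0.31 ± 0.06), TUBB4B (-0.29 ± 0.08) and TUBB6 (-0.86 ± 0.19) were lower, and TUBB3 was higher (0.24 ± 0.10). All of these groups were apart from WT. The TUBB3 call was lost without any one of WT untreated replicates 1, 2 and 4 and double KO untreated replicates 1, 2 and 4 (adjusted p up to 0.1023). Beside these differences, the untreated sum of the pluripotency markers was 2.81 to 3.35 CPM in WT, 10.3 to 14.3 CPM in DLK KO, 13.2 to 18.8 CPM in LZK KO and 52.9 to 59.1 CPM in double KO, with TDGF1 at 0 in DLK KO and LZK KO. In the same order, the progenitor sum was 779 to 824, 226 to 295, 549 to 703 and 290 to 303 CPM. Of its 5 genes, 1 was called higher and 3 lower in DLK KO, 3 and 2 in LZK KO, and 2 and 2 in double KO. The sum of 4 markers of dividing cells was 10.6 to 12.4, 17 to 18.8, 62.5 to 70.8 and 23.1 to 30.5 CPM. The neuron sum, in that order, was 14950 to 15850, 14810 to 16210, 15510 to 16840 and 18770 to 18960 CPM. Of its 10 genes, 2 were called higher and 4 lower in DLK KO, 2 and 2 in LZK KO, and 4 and 4 in double KO (median log2 change 0.01). The part of these markers was not tested. TUBB itself was not called in LZK KO (0.09, 95% interval -0.06 to 0.24) or double KO (0.05, -0.10 to 0.20).

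The difference in vincristine effect between a line and its control was fitted gene by gene in edgeR, as an interaction. These differences use the vincristine libraries with which the genes were picked, and those of an experiment share the control libraries, so they are given with their SE as a description, and nothing is read from how many passed the threshold. In LZK KO 5 of 8 genes passed it (12.4% of all genes tested, 5.88% in this direction), each with a fall closer to 0 than in WT. The log2 differences were 0.75 ± 0.11 for TUBB4B, 0.63 ± 0.13 for TUBB4A, 0.42 ± 0.10 for TUBB2A, 0.40 ± 0.11 for TUBB and 0.28 ± 0.09 for TUBB2B. With vincristine, TUBB in LZK KO stood at 596, 682, 563 and 710 CPM, above all WT libraries, and TUBB4A at 88.3, 87.7, 75.4 and 102 CPM, also above all WT libraries. The 95% interval of the TUBB3 difference was -0.15 to 0.42. Without WT vincristine replicate 4 the same order of genes had 0.75, 0.51, 0.38, 0.50 and 0.24, all past the threshold. A fit restricted to the groups compared left 3, without TUBB and TUBB2B. TUBB2B was also no longer past it without any one of 6 libraries, WT untreated replicates 2 and 3, WT vincristine replicate 3, LZK KO untreated replicate 2 and LZK KO vincristine replicates 2 and 4. In LZK KO the summed level of 4 markers of dividing cells (MKI67, TOP2A, CCNB1 and CDK1) was 62.5 to 70.8 CPM untreated and 76.8 to 91.5 CPM with vincristine, against 10.1 to 14.3 CPM in WT, and no marker was at 0 throughout a group. Its part in the result was not tested.

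In DLK KO the differences past the threshold were those of TUBB4A (0.45 ± 0.13) and TUBB6 (-0.83 ± 0.26), 2 of 8 where 19.4% of all genes were called. Without WT vincristine replicate 4 they were 0.33 and -0.86. The TUBB6 difference fell short of the threshold without DLK KO untreated replicate 2 (-0.65), the untreated library with the highest TUBB6 level in that line. In double KO they were those of TUBB6 (-1.13 ± 0.27), of TUBB2B, whose fall was larger than in WT (-0.39 ± 0.09), and of TUBB4B, whose fall was closer to 0 (0.39 ± 0.11), 3 of 8 against 19.4% of all genes. Without WT vincristine replicate 4 these 3 were -1.16, -0.44 and 0.40. The double KO differences of TUBB and TUBB2A were 0.02 (95% interval -0.19 to 0.23) and 0.04 (-0.15 to 0.24), and without that library the one of TUBB was 0.12.

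In experiment 2, the ATF2 gRNA differences past the threshold were those of TUBB6 (-1.12 ± 0.19), TUBB2B (-0.45 ± 0.07) and TUBB (-0.33 ± 0.06), 3 of 8 against 20.6% of all genes. TUBB and TUBB2B, both lower in ATF2 gRNA before treatment, stood at 311 to 334 CPM and 113 to 133 CPM in it with vincristine. In JUN gRNA they were those of TUBB6 (-0.97 ± 0.18) and TUBB4B (0.28 ± 0.08), 2 of 8 where 15.8% of all genes were called. With vincristine, TUBB6 in JUN gRNA lay below Control gRNA in every library, at 54.4% of its mean, while in ATF2 gRNA it overlapped Control gRNA. The TUBB6 difference in LZK KO was -0.50 (95% interval -0.997 to 0.003).

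**Figure D4:**
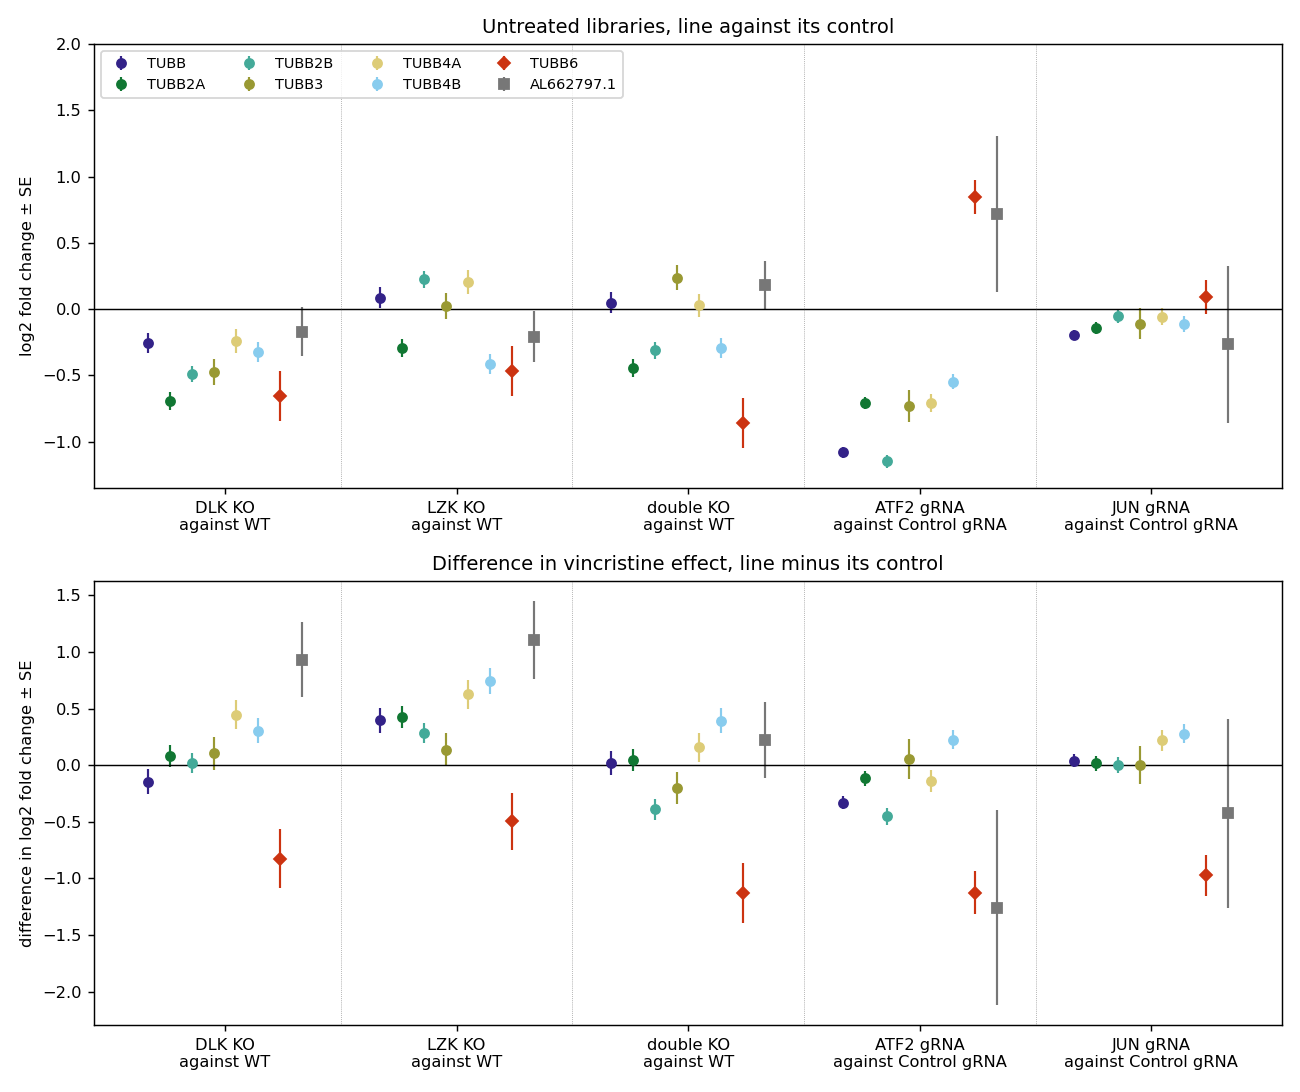
Log2 differences with SE for each of the 8 genes, above for untreated lines against their control and below for the vincristine effect of a line minus that of its control. TUBB6 (diamonds) is at 0.84 in untreated ATF2 gRNA while 6 isotypes there lie between -1.15 and -0.55, and below 0 in all 5 lower columns, from -0.50 (LZK KO, not called) to -1.13 (double KO).

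AL662797.1 had very low counts, 4 to 36 per library in experiment 1 and 0 to 58 in experiment 2. In WT it stood at 2.39, 2.52, 2.53 and 2.98 CPM untreated and at 0.912, 0.540, 0.522 and 0.431 CPM with vincristine (-2.10 ± 0.24, and -1.985 without WT vincristine replicate 4). Its libraries were apart in all 4 lines of experiment 1, and the log2 change was -1.16 ± 0.22 for DLK KO, -0.99 ± 0.23 for LZK KO and -1.87 ± 0.22 for double KO. Relative to TUBB, its counts there were 1.92 ± 0.29 per 1000 TUBB counts in untreated WT and 1.36 ± 0.59 with vincristine, and the 8 group means ran from 1.36 to 2.93.

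In experiment 2 the treated and untreated libraries of AL662797.1 overlapped in all 3 lines, while those of TUBB were apart. In Control gRNA it stood at 0.291, 0.291, 0.414, 0.303 and 0.508 CPM untreated and at 0.307, 0.612, 0.726, 0.259 and 1.17 CPM with vincristine (0.74 ± 0.59), with overlapping groups. The changes in ATF2 gRNA (-0.52 ± 0.63) and JUN gRNA (0.32 ± 0.59) also had overlapping groups, and JUN gRNA untreated replicate 5 had 0 counts. Per 1000 TUBB counts it was at 0.127 ± 0.033 in untreated Control gRNA and 0.714 ± 0.436 with vincristine. Over the libraries of an experiment, which share their treatments, Pearson's r of its log2 CPM with that of TUBB was 0.886 in experiment 1 (32 libraries) and -0.228 in experiment 2 (29 libraries), given as a description. AC010503.1, antisense to TUBB4A and wholly within its exons, was counted at group means of 8.31 to 16.6 per 1000 TUBB4A counts in experiment 1 and at 0 in all libraries of experiment 2. It was singled out after its values were seen. Whether strand was used in counting is not given in the sources used here, and its part in these antisense counts was not tested.

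**Figure D5:**
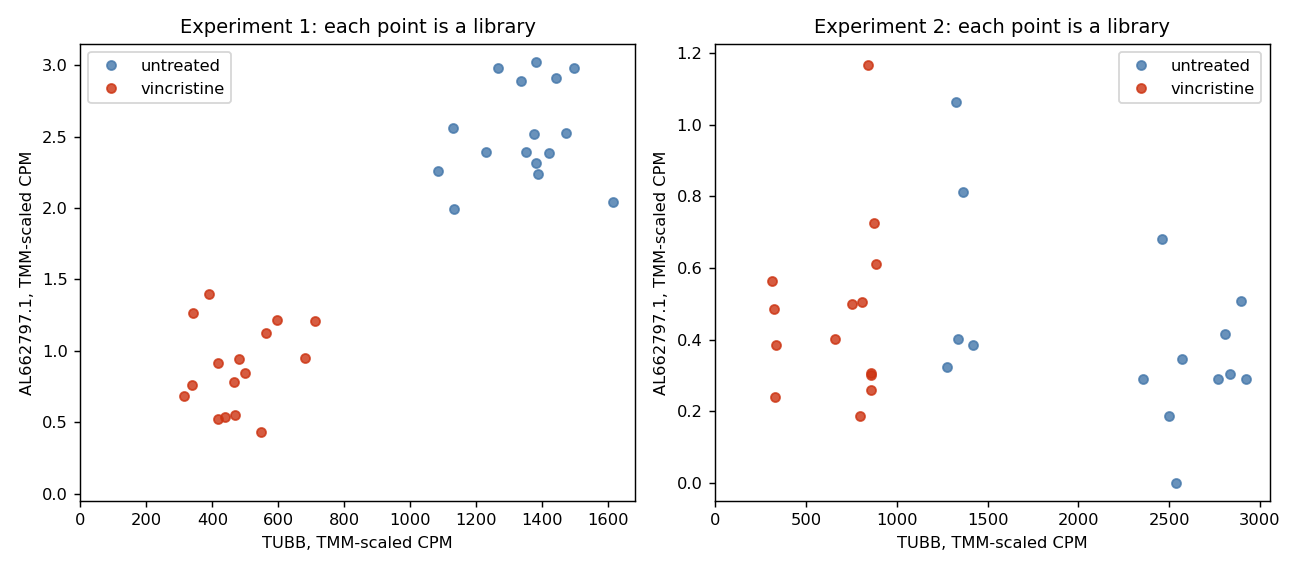
AL662797.1 against TUBB in every library, both in TMM-scaled CPM, for experiment 1 (left) and experiment 2 (right), untreated in blue and vincristine in red. In experiment 1 untreated libraries lie together at high and vincristine libraries at low values of both genes (r = 0.886), and in experiment 2 they do not (r = -0.228).

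Because ATF2 and JUN bind related sites, the 250 bases before each isotype's start were searched for TGACGTCA, TNACGTCA (which includes it) and TGANTCA on both strands, in the 11 RefSeq windows (GRCh38.p14) of the 7 isotypes. TGACGTCA is the site of the ATF and CREB factors, and TGANTCA that of the JUN and FOS factors. TGACGTCA occurred in the window of TUBB2A, 60 bases before the start, and TTACGTCA in that of TUBB2B, 124 bases before the start. The sites are shown with their surroundings on the coding strand, with the match in capitals, at chr6:3157586-3157615 and chr6:3227759-3227788 (minus strand).
TUBB2A: cccgcccgtcaTGACGTCAccgggcagggc
TUBB2B: ggctcggagcaTTACGTCAgccgggcctgg
The whole window of TUBB2A (chr6:3157545-3157794, minus strand), which holds no annotated exon, is shown because that gene was lower in every untreated line that was compared.
TUBB2A upstream: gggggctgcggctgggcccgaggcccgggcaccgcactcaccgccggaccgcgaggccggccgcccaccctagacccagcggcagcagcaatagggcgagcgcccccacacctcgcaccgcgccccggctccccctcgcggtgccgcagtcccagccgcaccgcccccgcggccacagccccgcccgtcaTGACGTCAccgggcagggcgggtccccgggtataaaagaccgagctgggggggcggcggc
Among 35116 windows of the same length, 1.65% held TGACGTCA, 2.67% TNACGTCA and 6.57% TGANTCA. A window of TUBB3 held TGAGTCA 21 bases before the start, and none of the 3 patterns was found in the windows of TUBB, TUBB4A, TUBB4B and TUBB6. A match in these letters is a description and not a bound site.

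Alpha tubulin, the partner of beta tubulin in the dimer, moved in the same direction as the 6 isotypes. Of 9 alpha tubulin genes 5 passed the filter, and with vincristine 4 were called lower in WT, DLK KO and JUN gRNA, 3 in Control gRNA and ATF2 gRNA, and 2 in LZK KO and double KO, with 0 called higher in any line. The share of all genes tested that was called lower was 14.5% (WT), 2.28% (DLK KO), 1.61% (LZK KO), 0.0603% (double KO), 18.1% (Control gRNA), 4.22% (ATF2 gRNA) and 8.31% (JUN gRNA). Their median log2 change was -1.55 in WT and -0.84 in Control gRNA. TUBA1B (-2.28 ± 0.11), TUBA1A (-1.90 ± 0.10) and TUBA1C (-1.55 ± 0.22) had the largest changes in WT, and TUBA1B (-1.94 ± 0.06), TUBA1A (-1.78 ± 0.05) and TUBA4A (-0.84 ± 0.06) in Control gRNA.

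The genes that carry out autoregulation (TTC5, SCAPER and 10 CCR4-NOT subunits) had a median log2 change of 0.03 in WT and 0.06 in Control gRNA. Of 12 tested, 1 was called higher in WT (SCAPER, 0.20 ± 0.06), where 15.7% of all genes were, and 5 were called higher and 2 lower in Control gRNA (17.1% and 18.1% of all genes), with TTC5 at -0.36 ± 0.05, SCAPER at 0.27 ± 0.05 and CNOT6L at 0.27 ± 0.08. None was called in DLK KO, LZK KO, double KO or ATF2 gRNA, and 2 were called lower in JUN gRNA. Of 22 identifiers of the folding machinery (the CCT chaperonin, prefoldin and the tubulin cofactors), 6 were called lower in WT (14.5% of all genes), led by PFDN2 (-0.42 ± 0.11), CCT6A (-0.26 ± 0.07) and CCT5 (-0.25 ± 0.08). In Control gRNA 13 were called lower (18.1% of all genes), led by CCT5 (-0.32 ± 0.03), CCT7 (-0.31 ± 0.03) and TBCB (-0.27 ± 0.05). The median log2 change of the folding list was -0.19 in WT and -0.14 in Control gRNA. Among 36 other genes with a TUBB symbol, mostly pseudogenes, 4 were tested in experiment 1 and 5 in experiment 2. The one gene called with vincristine was TUBBP1, in every line except double KO (-1.40 ± 0.27 in WT and -1.79 ± 0.34 in Control gRNA), a processed copy that shares stretches of 100 bases with TUBB, so its counts may come from TUBB.

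The genes whose pattern over libraries was most like that of TUBB were named by the mean of Pearson's r of log2 CPM in the 32 and the 29 libraries, among 12338 genes with enough counts. They were TUBA1A (0.988 and 0.995), TUBA1B (0.983 and 0.970), TUBG1 (0.911 and 0.888), the gamma tubulin of the microtubule-nucleating ring, SELENOI (0.688 and 0.858) and RAP2C (0.624 and 0.891). TUBB itself had r of 0.885 to 0.990 with the other 5 isotypes that fell, over both experiments, and of -0.231 and -0.435 with TUBB6. The genes most like TUBB6 were SNX9 (0.893 and 0.872), a membrane-remodelling sorting nexin, HTR7 (0.866 and 0.820), a serotonin receptor, SARS (0.901 and 0.783), the seryl-tRNA synthetase, ANXA5 (0.878 and 0.805), a calcium-dependent lipid-binding protein, and PCK2 (0.864 and 0.789), the mitochondrial PEP carboxykinase. All points of these correlations share the treatments and the scaling of their experiment.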

How the data were processed

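The deposited files hold raw counts per gene, 1 table per experiment, which the authors made from poly(A) RNA libraries of a stranded kit, per the labels' protocols. Per the submitters' processing notes, cutadapt 3.4, STAR and featureCounts of Subread 2.0.1 were used with GRCh38. The tables have featureCounts' layout, and settings for strand and for reads that fit several genes are not given in the sources used here. Of 58440 identifiers 56992 had the same version in GENCODE 29, and 0 count columns were left unused. No pair of replicates was a copy.

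Each experiment was fitted once with edgeR 4.0.16 in R 4.3.3 (filterByExpr by group with its count minimum of 10, TMM, robust quasi-likelihood, 1 mean per group). SE is the log2 fold change over the square root of F. The fit was tested on simulated counts with known changes. Alternatives were DESeq2 1.42.0, RLE factors, no filter, a mean of at least 1 CPM, the replicate block, a fit of just the 2 or 4 groups of a comparison, and dropping single libraries. The TUBB6 ratio used exact permutations, with every split of the compared libraries enumerated in Python 3.11.15. Named are all 8 genes, up to 3 called genes of each list with the largest change in WT and in Control gRNA, and the 5 genes most like TUBB and TUBB6. Members and lists were chosen with earlier results of these data known.

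Replicate numbers do not pair the libraries: deviations of same-numbered libraries correlated with a median r of 0.002 in experiment 1 and -0.001 in experiment 2.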

Additional observations from a re-analysis of the deposited data

Results flagged for a closer look

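In 4 of 112 groups of values, 1 library lay far from the others of its group. TUBB6 in DLK KO untreated replicate 2 was at 4.59 CPM where the other libraries were at 2.87 to 3.01 CPM. TUBB in LZK KO untreated replicate 2 was at 1615 CPM against 1380 to 1420 CPM, TUBB2B in Control gRNA untreated replicate 2 at 968.8 CPM against 882.1 to 905.4 CPM, and TUBB4A in Control gRNA vincristine replicate 5 at 40.4 CPM against 49.6 to 52.6 CPM. Chance flags about 1 in 20 such groups.

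The remaining values listed are log2 differences in vincristine effect between a line and its control past the threshold of the interaction fit. The genes were picked with vincristine effects known, so these are a description. For TUBB6 they were -0.83 (DLK KO), -1.13 (double KO), -1.12 (ATF2 gRNA) and -0.97 (JUN gRNA). TUBB differed by 0.40 in LZK KO and -0.33 in ATF2 gRNA. TUBB2A differed by 0.42 in LZK KO, and TUBB2B by 0.28 in LZK KO, -0.39 in double KO and -0.45 in ATF2 gRNA. TUBB4A differed by 0.45 in DLK KO and 0.63 in LZK KO. TUBB4B differed by 0.75 in LZK KO, 0.39 in double KO and 0.28 in JUN gRNA.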

How the results depend on the processing

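Of 821 alternative values of the 56 vincristine effects, 3 changed sign and 2 changed their side of the threshold. Those were TUBB6 in JUN gRNA (-0.03, but 0.04431 without JUN gRNA untreated replicate 3 and 0.06592 without JUN gRNA vincristine replicate 4), AL662797.1 in JUN gRNA (0.32, but -0.004429 without JUN gRNA untreated replicate 5), and AL662797.1 in LZK KO, which was not called with no filter (-0.99) or with just the groups compared (-0.98). Of the 80 tested gene results, 55 kept both in every alternative run. Of their 1524 alternative values, 31 lost a call, 18 gained one and 54 changed sign. The cause of these changes was not tested. The count of genes whose effect differed in LZK KO was 5, and 3 when the fit held just the groups compared. Leaving out 1 library gave counts of 1 to 3 for the difference in DLK KO and of 1 to 2 for untreated JUN gRNA, and a TUBB6 ratio in JUN gRNA of 0.1653 to 0.3263 (adjusted p = 0.0397 at the highest, without JUN gRNA untreated replicate 5, exact permutation test).

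The replicate numbers did not pair the libraries, and no call of a gene changed with them as a block. With sign flips within replicate numbers the TUBB6 ratio in ATF2 gRNA stayed at 1.818 with an adjusted p of 0.2083 (exact permutation), a design too small to pass, and the difference of TUBB3 in JUN gRNA was -0.000931 with the replicate block in edgeR against 0.0037.

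Signs changed for values near 0. Without 1 library, they ranged from -0.06148 to 0.08005 for TUBB3 in untreated LZK KO. Differences in effect ranged from -0.02943 to 0.06023 for TUBB2B in DLK KO, from -0.02416 to 0.1218 for TUBB and from -0.001189 to 0.09082 for TUBB2A in double KO. For JUN gRNA they ranged from -0.01986 to 0.06324 for TUBB2A, from -0.03109 to 0.05844 for TUBB2B, from -0.06135 to 0.08253 for TUBB3 and from -0.7601 to 0.09118 for AL662797.1, and for TUBB3 in ATF2 gRNA from -0.06015 to 0.1657. AL662797.1 in untreated JUN gRNA ranged from -0.7814 to 0.05145. In JUN gRNA, no filter gave differences of -0.02108 for TUBB2A, -0.03432 for TUBB2B and -0.03433 for TUBB3. A mean of at least 1 CPM gave -0.01127 for TUBB2B and -0.01044 for TUBB3, and just the groups compared gave -0.006301 and -0.005969. None of these was called. AL662797.1 in experiment 2 did not pass the filter at 1 CPM, so that alternative gave it no value. Its low counts limit what can be seen of it.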
